A study of Mus musculus with 6 samples.

Results

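Expression of *Steap4* and 9 further genes of iron handling was examined in neutrophils sorted from the peripheral blood (PB) of mice with periodontitis. The 10 genes were *Steap4*, *Steap3*, *Slc11a1*, *Slc11a2*, *Slc40a1*, *Tfrc*, *Fth1*, *Ftl1*, *Hmox1* and *Ireb2*. All 10 were found among the 29097 genes of the expression table. *Steap4* was chosen by its rise in these libraries, so its difference between the groups is given as a description with no test, and the other 9 were listed for their function in iron handling with results of these data already known.

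The study compared 3 control libraries (Ctrl) with 3 libraries from mice with ligature-induced periodontitis (LIP, Lig in the labels). All mice were male wild-type C57BL/6 animals of 8 weeks, and each library was made by Smart-seq2 from the pooled cells of 5 mice. In LIP mice, silk ligatures stayed on the second molars for 14 days, and no other treatment separated the groups. Cells were sorted as CD45+CD11b+Ly6G+ after lysis of red blood cells. Because each library is a pool, the spread between libraries is that between pools and not between single animals.

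Iron enters most cells as transferrin bound to its receptor and is reduced in endosomes by metalloreductases of the STEAP family before a divalent metal transporter moves it to the cytosol. Ferritin stores it, ferroportin exports it, and haem oxygenase frees it from haem. Iron regulatory proteins bind a stem-loop in the mRNA, the iron-responsive element (IRE). At the 5′ end of an mRNA this blocks translation when iron is low, and at the 3′ end it protects the mRNA from decay. Neutrophils are known for withholding iron from microbes with lipocalin 2 and lactoferrin.

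The IRE sequences found in the members are shown because the end of the mRNA at which an IRE lies sets the kind of control. A stem-loop of 17 bases was searched on the sense strand of the annotated untranslated regions (GENCODE M21, GRCm38): a C, 5 bases, a loop of 6 bases that reads CAGTGN, and 5 bases that pair with the first 5, with G-U pairs allowed. It was found in 4 members and not in the other 6, where a looser or bulged element was not searched for. The absence of an IRE is therefore not shown for these 6, *Slc11a2* included. Among 21745 genes, 0.129% held a match in the 5′ region and 0.584% in the 3′ region. Each line gives the transcript strand 5′ to 3′ with 6 bases on either side, and capitals mark the loop.
Fth1 (chr19:9982732-9982760, + strand, 5′ UTR, exon 1): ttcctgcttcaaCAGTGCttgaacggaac
Ftl1 (chr7:45459779-45459807, minus strand, 5′ UTR, exon 1): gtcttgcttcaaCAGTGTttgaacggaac
Slc40a1 (chr1:45925465-45925493, minus strand, 5′ UTR, exon 1): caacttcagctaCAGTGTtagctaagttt
Tfrc 1 (chr16:32631219-32631247, + strand, 3′ UTR, exon 19): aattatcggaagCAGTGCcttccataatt
Tfrc 2 (chr16:32631598-32631626, + strand, 3′ UTR, exon 19): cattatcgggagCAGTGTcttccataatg
Tfrc 3 (chr16:32631663-32631691, + strand, 3′ UTR, exon 19): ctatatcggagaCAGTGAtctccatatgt
Tfrc 4 (chr16:32631710-32631738, + strand, 3′ UTR, exon 19): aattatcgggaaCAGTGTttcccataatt
The ferritin genes and the exporter gene *Slc40a1* carried 1 match each at the 5′ end, and the transferrin receptor gene *Tfrc* carried 4 at the 3′ end. The loops differed among these sites at their last base alone, which the pattern left free.

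Levels below are in FPKM (fragments per kilobase of transcript scaled to the mapped reads of the library) divided by the TMM factor of the library, called normalized FPKM. Fold changes are edgeR log2 fold changes of LIP over Ctrl on the deposited counts, with their standard error (SE). The libraries held 52186555 to 57262379 counts. The sort label was checked against markers: all 15 neutrophil marker genes were measured, with *Ly6g* at 16.3 to 17.7 in Ctrl and 42.5 to 53.7 in LIP. The 15 summed to 13730 to 17181 in Ctrl and 58475 to 64875 in LIP, every one was called higher, and *S100a9* was the most abundant. The neutrophil markers took 1.49 to 1.65% of the reads in Ctrl and 4.62 to 4.95% in LIP. Erythroid markers, led by *Hba-a1*, took 14.7 to 15.1% of the reads in Ctrl and 1.56 to 1.62% in LIP. They summed to 159150 to 168830 in Ctrl and 21576 to 22699 in LIP. B cell markers took 2.05 to 2.21% of the reads in Ctrl and 0.335 to 0.343% in LIP. In Ctrl the erythroid markers and the B cell markers therefore each took more reads than the neutrophil markers, and in LIP fewer. By these markers the Ctrl libraries held much RNA of other cells, so a Ctrl level is not that of neutrophils alone. Summed B cell markers (led by *Cd74*) lay at 9408 to 10550 in Ctrl and 1986 to 2004 in LIP, summed T cell markers (*Lck*) at 201 to 225 and 41.4 to 54.2, summed monocyte and macrophage markers (*Cd68*) at 205 to 213 and 427 to 466, and summed platelet markers (*Ppbp*) at 677 to 932 and 1857 to 2127. Markers of proliferating cells (*Ccnb2*) summed to 2.62 to 5.64 and 2.82 to 5.75. No marker was at 0 in all libraries. Every difference below moved together with these marker levels, and their part in it was not tested. In such bulk libraries, fewer cells of a type and less RNA per cell cannot be told apart.

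*Steap4* encodes a metalloreductase of the STEAP family that reduces ferric iron and cupric copper. Its level was 31.1, 14.7 and 22.7 normalized FPKM in Ctrl libraries 1, 2 and 3, and 149, 166 and 145 in LIP libraries 1, 2 and 3. Each LIP library stood above each Ctrl library, and Ctrl 2 was the lowest of the 6. The means were 22.8 ± 8.21 in Ctrl and 153 ± 11.2 in LIP (SD, n = 3), 6.72-fold apart, with a log2 fold change of 2.73 (SE 0.227). Between 3010 and 6391 reads per Ctrl library and 23381 to 28493 per LIP library lay behind these levels. The coefficient of variation was 36.0% in Ctrl and 7.32% in LIP. By log2 fold change *Steap4*, which was chosen by its rise, ranked 3 among the 3386 tested genes whose mean FPKM reached 10. It stood below *Entpd3* (3.07) and *Snai1* (2.76) and above *Mrgpra2a* and *Lrg1* (both 2.66).

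**Figure D1:**
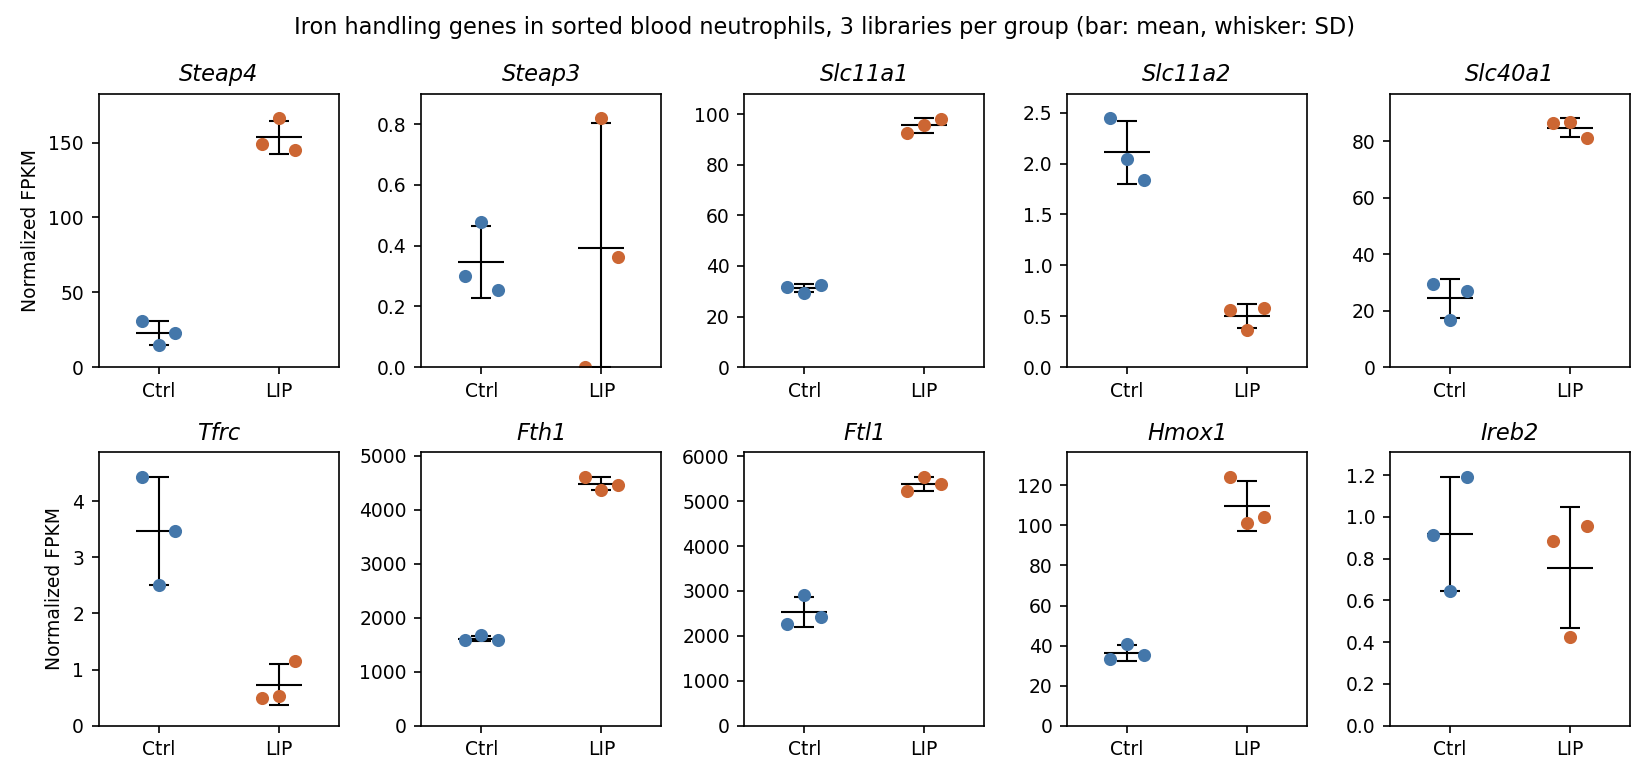
Normalized FPKM of the 10 genes in each library, on a linear axis from 0 for each gene, with Ctrl in blue and LIP in orange. Points are libraries 1 to 3 from left to right, bars are means and whiskers SD (cut at 0 for *Steap3*). The groups are apart in 8 panels and overlap for *Steap3* and *Ireb2*.

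The 5 genes whose profile over the 6 libraries lay nearest to that of *Steap4* were *Slfn4*, *Gk*, *Ppp1r3d*, *App* and *Entpd3*, by the root mean square distance of centred log2(CPM + 1) values among 3385 candidates whose mean FPKM reached 10. The distances were 0.204, 0.224, 0.233, 0.251 and 0.272 on the log2 scale. *Slfn4*, the nearest, stood at 65.7, 31.8 and 53.6 normalized FPKM in Ctrl libraries 1 to 3 and at 292, 253 and 255 in LIP. Its lowest value, like that of *Steap4*, was in Ctrl 2, which is part of the nearness by which it was picked. Ctrl 2 was also the lowest of the 6 for the neutrophil markers *Itgam* and *Csf3r*. For *S100a8* and *S100a9* it was the highest Ctrl library, and other neutrophil markers also went either way.

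The sequence upstream of *Steap4* is shown because the list was built around this gene. It is the 250 bases before the RefSeq start on the + strand (chr5:7960222-7960471, GRCm38.p6), and capitals mark the matches to TTCNNNGAA, the core of STAT sites, and to TTGCNNAA, a core of C/EBP sites, searched on both strands.
Steap4 promoter: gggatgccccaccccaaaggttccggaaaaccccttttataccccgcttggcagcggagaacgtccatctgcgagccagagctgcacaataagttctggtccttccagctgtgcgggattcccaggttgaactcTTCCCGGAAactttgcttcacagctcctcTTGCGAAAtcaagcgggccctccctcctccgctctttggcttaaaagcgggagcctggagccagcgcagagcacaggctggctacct
The STAT match began at -116 and the C/EBP match at -87, counted from the start, with no overlap. Among 32851 RefSeq promoters of this length, 7.02% held a STAT match and 9.56% a C/EBP match. Promoters were in the RefSeq table used for 7 of the 10 genes, and 1 of their 12 promoters held a STAT match and 3 a C/EBP match. A match is a run of letters, and binding was not measured.

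The other reductase of the list, *Steap3*, is best known as the endosomal ferrireductase of red cell precursors. It was near the limit of detection, at 0.301, 0.479 and 0.254 normalized FPKM in Ctrl and 0, 0.819 and 0.363 in LIP. LIP held both the lowest and the highest library, so the groups overlapped. Its mean FPKM was under the limit of 1 set for testing. Without that limit the edgeR log2 fold change was 0.22 (SE 1.34, adjusted p = 0.935), and a difference was not detectable at this depth.

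Of the 9 genes listed for function, 7 passed the limit of 1 FPKM, and at a threshold of 0.05 on the adjusted p edgeR called 5 of them higher and 2 lower in LIP. Over all 10440 genes tested, 26.5% were called higher and 27.2% lower, and the libraries of the groups did not overlap for 63.4%. *Tfrc* and *Slc11a2*, the pair called lower, passed the limit through their Ctrl level alone, and nothing is read from these counts about the list.

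Among the uptake genes, *Tfrc* encodes transferrin receptor 1, the main route of iron into dividing and haem-making cells. It stood at 4.43, 2.51 and 3.47 normalized FPKM in Ctrl and 0.496, 0.532 and 1.15 in LIP. All LIP libraries lay below all Ctrl libraries, by 4.79-fold in the means (3.47 ± 0.961 and 0.725 ± 0.365, SD, n = 3). Its log2 fold change was -2.27 (SE 0.373), on 1013 to 1791 reads per Ctrl library and 167 to 363 per LIP library. *Slc11a2* encodes DMT1, the transporter that moves reduced iron out of the endosome. Ctrl libraries held it at 2.44, 2.05 and 1.84, and LIP libraries at 0.563, 0.369 and 0.580, again without overlap. Its log2 fold change was -2.06 (SE 0.305), 4.19-fold lower in the means. As both passed the limit through Ctrl alone, their test is given from the edgeR fit of all 29097 genes with no limit, where *Tfrc* was at -2.23 (SE 0.385, adjusted p = 0.00482) and *Slc11a2* at -2.03 (SE 0.281, adjusted p = 0.00151). Both genes were low in the libraries of either group. They fell beside erythroid markers, whose 8 tested genes were all called lower (median log2 fold change, -2.96), beside 27.2% of all genes. Of these 8, *Slc4a1* and *Tspo2* had LIP means under 1 (0.450 and 0.533 normalized FPKM). All 10 B cell and all 10 T cell markers were called lower as well (medians, -2.54 and -2.37), beside 27.2% of all genes. Of the T cell markers, *Cd4*, *Cd8a* and *Cd5* had LIP means under 1 (0.960, 0.775 and 0.688 normalized FPKM). Like *Slc4a1* and *Tspo2*, they passed the limit through their Ctrl level alone. Which cells the reads of both genes came from was not tested.

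*Slc11a1* encodes NRAMP1, a divalent metal transporter of the phagosome in neutrophils and macrophages. C57BL/6 mice carry an allele whose protein is not functional, so here the mRNA is not a measure of transport. Its level was 31.5, 29.4 and 32.5 normalized FPKM in Ctrl and 92.6, 95.9 and 98.1 in LIP, tight within each group (31.1 ± 1.59 and 95.5 ± 2.81, SD, n = 3). The log2 fold change was 1.60 (SE 0.0985, edgeR adjusted p = 6.63e-07), which turned to -0.13 (adjusted p = 0.243) when libraries were scaled on the neutrophil markers. *Slc11a1* and *Slc11a2*, the related transporters of phagosome and endosome, thus differed in opposite directions under TMM scaling.

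*Slc40a1* encodes ferroportin, the exporter of cellular iron, and is highly expressed in macrophages that recycle red cells. It stood at 29.5, 16.6 and 26.9 normalized FPKM in Ctrl and 86.5, 87.0 and 81.1 in LIP. As for *Steap4*, Ctrl 2 was the lowest of the 6 and the spread was larger in Ctrl (24.3 ± 6.84) than in LIP (84.9 ± 3.31, SD, n = 3). The log2 fold change was 1.79 (SE 0.180, edgeR adjusted p = 1.70e-05), and with scaling on neutrophil markers 0.05 (adjusted p = 0.795). Of the monocyte and macrophage markers, 8 of 9 tested genes were higher (median log2 fold change, 1.13), beside 26.5% of all genes. *C1qb* was not called (edgeR adjusted p = 0.537), and *C1qa*, *Spic* and *Ms4a7* were under the limit of 1 FPKM. All 15 neutrophil and all 6 platelet markers were higher as well. Which cells the *Slc40a1* reads came from was not tested.

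The ferritin genes were the most abundant members. *Fth1* encodes the heavy subunit, which oxidises iron, and stood at 1587, 1675 and 1581 normalized FPKM in Ctrl and 4610, 4371 and 4466 in LIP. Its log2 fold change was 1.46 (SE 0.0561, edgeR adjusted p = 5.55e-08), and -0.28 (adjusted p = 0.00357) with scaling on neutrophil markers. *Ftl1* encodes the light subunit, which helps the iron core to form, and stood at 2255, 2912 and 2426 in Ctrl and 5220.0, 5541 and 5373 in LIP. Its log2 fold change was 1.07 (SE 0.0910, edgeR adjusted p = 4.86e-06), and -0.67 (adjusted p = 6.01e-05) with scaling on neutrophil markers. No LIP library of either gene overlapped a Ctrl library.

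The ferritin subunits did not differ by the same amount. The ratio of *Fth1* to *Ftl1* FPKM, which no scaling of libraries changes, was 0.704, 0.575 and 0.652 in Ctrl and 0.883, 0.789 and 0.831 in LIP. Every LIP library had the higher ratio, at 0.834 ± 0.0472 against 0.643 ± 0.0648 (SD, n = 3). An exact two-sided permutation test gave p = 0.1, the smallest that 3 against 3 allows, so the design could not reach 0.05 here. *Ftl1* has near-identical copies, and *Ftl1-ps1* and *Ftl2-ps* held 8.69 to 11.3% of their joint reads, so its counts are uncertain by what the counting assigned to them. With these reads added to *Ftl1*, Ctrl libraries had a ratio of reads of 1.51 ± 0.146 and LIP libraries one of 1.93 ± 0.101 (SD, n = 3), again without overlap. *Ftl1* also overlaps *Gm10252* on the opposite strand, whose mean FPKM was 6.82.

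*Hmox1* encodes haem oxygenase 1, which splits haem into iron, carbon monoxide and biliverdin. It stood at 33.2, 40.7 and 35.2 normalized FPKM in Ctrl and 124, 101 and 104 in LIP, and the groups did not overlap. The log2 fold change was 1.58 (SE 0.131, edgeR adjusted p = 4.27e-06), which turned to -0.16 (adjusted p = 0.313) with scaling on neutrophil markers. *Ireb2* encodes IRP2, which binds IREs when iron is low. It was at 0.915, 0.646 and 1.19 in Ctrl and 0.886, 0.425 and 0.957 in LIP, with overlapping groups and a mean FPKM under the limit. Without the limit its log2 fold change was -0.26 (SE 0.377, edgeR adjusted p = 0.668), and no difference was called.

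In Ctrl the order of mean normalized FPKM ran from *Ftl1* through *Fth1*, *Hmox1*, *Slc11a1*, *Slc40a1*, *Steap4*, *Tfrc*, *Slc11a2* and *Ireb2* to *Steap3*. The libraries of *Slc11a1* and *Slc40a1*, and those of *Slc40a1* and *Steap4*, overlapped, while other neighbours in the order did not. In LIP *Steap4* stood at rank 3 with 145 to 166, above *Hmox1* at 101 to 124, and no neighbours down to *Slc40a1* overlapped. *Ireb2*, *Tfrc*, *Slc11a2* and *Steap3* followed, all at means of 0.756 or less, and overlapped in this order. As *Steap4* was chosen by its rise, its move from rank 6 to rank 3 follows from that choice and is a description. *Ireb2* moved from rank 9 to rank 7 while its own level overlapped between the groups.

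Because the neutrophil markers differed by a median log2 fold change of 1.84 themselves, the members were also set against them. With libraries scaled on the 15 markers, the median over all genes tested moved from -0.09 to -1.83 on the log2 scale. Under that scaling *Steap4* was at 0.99, *Slc40a1*, *Slc11a1* and *Hmox1* lay between -0.16 and 0.05, and *Tfrc* and *Slc11a2* were at -4.00 and -3.80. *Steap4* amounted to 15.7, 7.34 and 10.9% of the geometric mean FPKM of the markers in Ctrl libraries 1, 2 and 3, and to 22.2, 23.2 and 21.9% in LIP. Each LIP library was higher, with means of 11.3 ± 4.20% and 22.5 ± 0.702% (SD, n = 3). For *Slc11a1* the means were 15.4 ± 0.622% and 14.0 ± 0.724%, for *Slc40a1* 12.0 ± 3.38% and 12.4 ± 0.406%, and for *Hmox1* 18.0 ± 2.07% and 16.1 ± 2.21% (SD, n = 3), and for all 3 genes the libraries of the groups overlapped. With library totals that leave out erythroid, B and T cell markers, the log2 fold change of *Steap4* was 2.17.

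**Figure D2:**
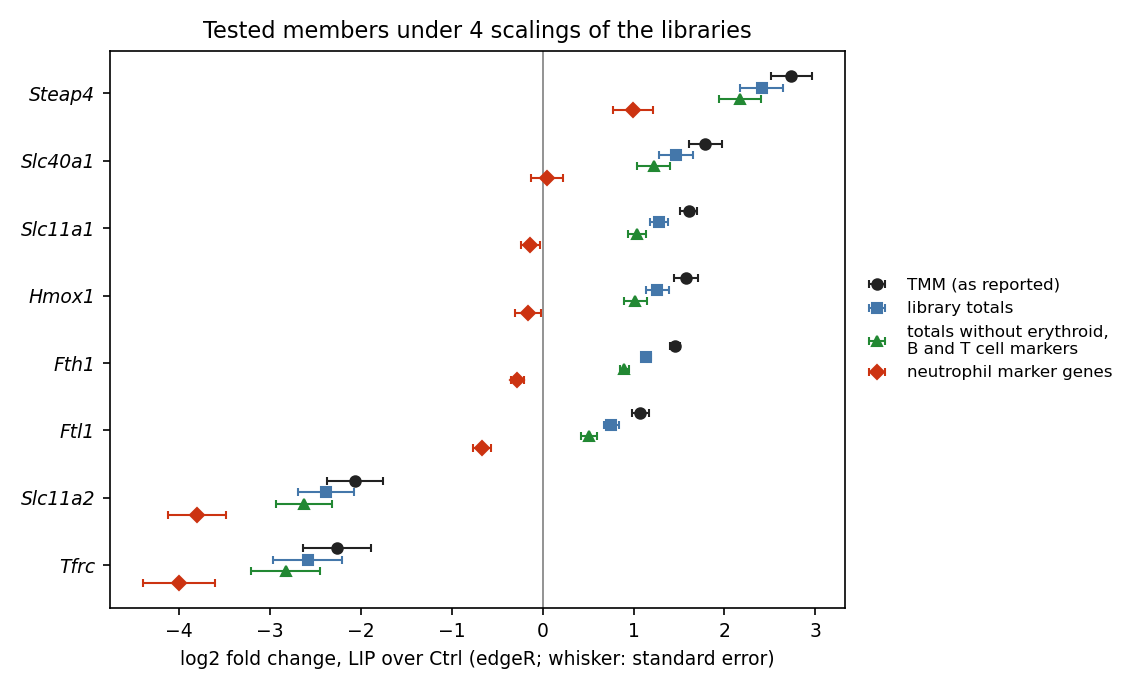
Log2 fold change of LIP over Ctrl (horizontal axis) for the 8 tested members under 4 scalings, with whiskers for the standard error. *Steap4*, shown as a description, lies to the right of 0 under all 4 (0.99 to 2.73), while *Slc11a1*, *Hmox1*, *Fth1* and *Ftl1* cross to negative values with scaling on neutrophil markers.

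**Figure D3:**
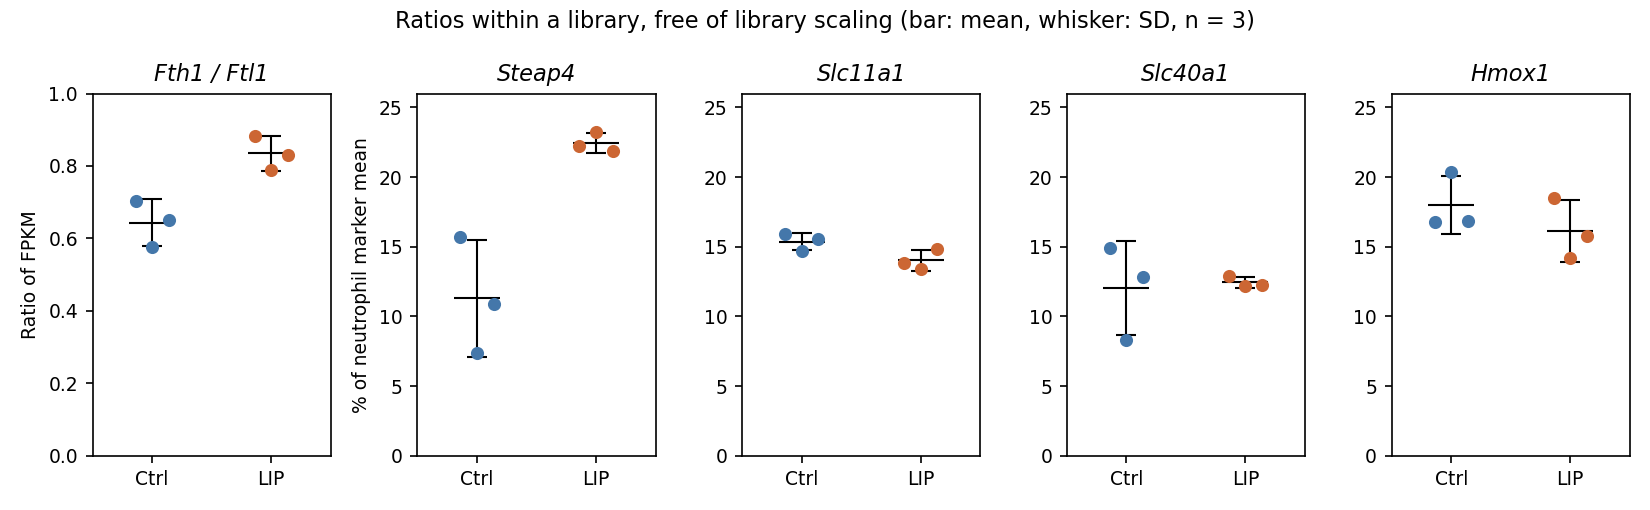
Ratios within each library: *Fth1* over *Ftl1* FPKM on the left, and 4 genes as percent of the geometric mean FPKM of 15 neutrophil markers. Points are libraries, bars means and whiskers SD (n = 3). *Fth1* over *Ftl1* and *Steap4* are higher in every LIP library, and the libraries of *Slc11a1*, *Slc40a1* and *Hmox1* overlap between groups.

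A wider iron list held 55 further genes, of which 50 were in the table and 34 were tested. Of these, 13 were called higher, 14 lower and 7 not called, beside 26.5% higher and 27.2% lower among all genes tested. Their median log2 fold change was -0.38, beside -0.09 for all genes tested. These calls became 8 higher and 18 lower with totals without erythroid, B and T cell markers, and 2 higher and 30 lower with scaling on neutrophil markers. *Abcb8*, called lower, passed the limit of 1 FPKM through its Ctrl level alone.

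Genes of haem handling and of iron withholding were mostly higher under TMM scaling. In haem handling, 6 of 9 tested genes were higher, beside 26.5% of all genes, and 1 stayed above 0 with scaling on neutrophil markers. The rises were led by *Hp*, the haemoglobin-binding plasma protein haptoglobin, at 2.01 (edgeR adjusted p = 2.15e-07; 0.27 with that scaling), and *Nfe2l2*, the antioxidant transcription factor NRF2, at 1.43 (adjusted p = 8.64e-07), which turned to -0.31 with scaling on neutrophil markers. *Bach1*, a haem-sensing repressor of *Hmox1*, was at 1.37 (edgeR adjusted p = 4.54e-06) and at -0.37 with that scaling. The falls were *Blvrb*, biliverdin reductase B, at -1.25 (edgeR adjusted p = 0.000808) and *Slc48a1*, a haem transporter of the endolysosome, at -0.50 (adjusted p = 0.0359). Both tested withholding genes were higher, *Lcn2* at 2.06 (edgeR adjusted p = 2.15e-07; 0.32 with that scaling) and *Ltf*, lactoferrin, at 0.91 (adjusted p = 2.59e-05), the latter at -0.83 with scaling on neutrophil markers.

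Genes of mitochondrial iron and of iron-sulphur cluster assembly were mostly lower, with 8 of 14 tested genes lower (beside 27.2% of all genes), 2 higher and 4 not called. Of the 8, *Abcb8* had a LIP mean under 1 (0.795 normalized FPKM) and passed the limit through Ctrl alone. *Fech*, which inserts iron into haem, was at -2.52 (edgeR adjusted p = 3.39e-07) and *Glrx5*, a cluster carrier, at -1.42 (adjusted p = 0.00039). These genes and *Blvrb* are also high in red cell precursors. They fell beside the erythroid, B cell and T cell markers alike, and the part of any cell type in this was not tested. *Alas1*, the housekeeping first enzyme of haem synthesis, was higher at 1.98 (edgeR adjusted p = 4.82e-07), but with scaling on neutrophil markers was at 0.24 and not called (adjusted p = 0.0894). *Iscu*, a scaffold for clusters, was higher at 0.58 (edgeR adjusted p = 0.00239) and at -1.16 with that scaling.

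In the other roles few genes were tested. All 3 tested storage and chaperone genes besides ferritin were called lower, beside 27.2% of all genes, and 2 of them with median-of-ratios size factors. Ferritin was higher under TMM scaling, but with scaling on neutrophil markers it was lower too (*Fth1* -0.28, *Ftl1* -0.67). *Ncoa4*, the receptor that delivers ferritin to lysosomes, was at -0.52 (edgeR adjusted p = 0.00876) and the iron chaperone *Pcbp1* at -0.41 (adjusted p = 0.0108). *Fbxl5*, which targets iron regulatory proteins for degradation, was higher at 1.88 (edgeR adjusted p = 1.39e-06), but with scaling on neutrophil markers was at 0.15 and not called (adjusted p = 0.278). *Aco1*, which encodes IRP1, was at -0.11 (edgeR adjusted p = 0.831). *Trf*, transferrin, was at 1.34 (edgeR adjusted p = 2.95e-06) and *Hfe*, which binds transferrin receptor 1, at 0.96 (adjusted p = 0.00991), both below 0 with scaling on neutrophil markers (-0.40 and -0.77). *Mcoln1*, a lysosomal channel that can release iron, was at -0.41 (edgeR adjusted p = 0.164). *Cyb561a3*, a reductase of lysosomes and the only metalloreductase tested besides *Steap4*, was lower at -1.40 (edgeR adjusted p = 6.03e-05).

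**Figure D4:**
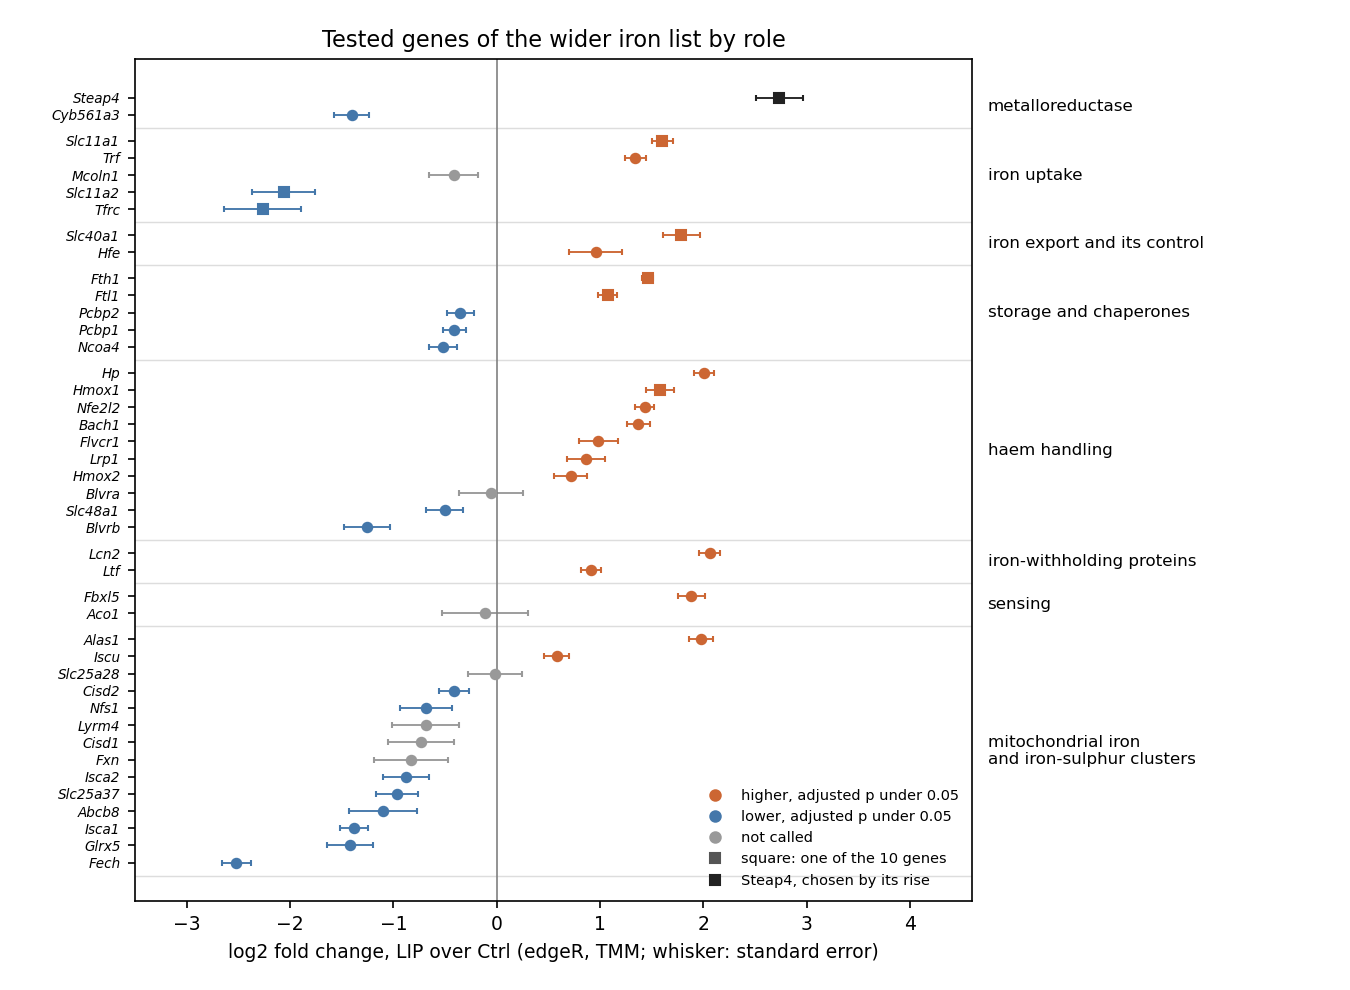
Log2 fold change of LIP over Ctrl (horizontal axis; whiskers, standard error) for the 42 tested genes of the wider iron list, grouped by role, with squares for members. Haem handling genes lie mostly to the right of 0, from 2.01 for *Hp* to -1.25 for *Blvrb*, and the mitochondrial genes mostly to the left, from 1.98 for *Alas1* to -2.52 for *Fech*.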

How the data were processed

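The authors deposited read counts and FPKM per gene for 6 Smart-seq2 libraries, 3 per group. The submitters' processing notes name cutadapt 1.9, FastQC and GRCm38, and the aligner, the counter and its strand setting are not given in the sources used here. Genes whose mean FPKM reached 1 (10440 of 29097) were tested on the deposited counts with edgeR 4.0.16 (R 4.3.3), by the quasi-likelihood test with TMM factors and Benjamini-Hochberg adjustment over all genes tested, at a threshold of 0.05. The fit was checked on simulated data in which few genes changed, in equal numbers up and down. That check does not bear on the scaling of libraries where many genes differ, as here. Normalized FPKM is the deposited FPKM over the TMM factor. The labels give the libraries as replicates, and the study's methods give each as a pool of 5 mice. No 2 libraries of a group agreed within sampling noise. Members, the wider iron list and the marker lists were chosen with earlier results of these data known. Genes named were all 10 members and, for each role, at most the 2 largest rises and falls among those called, the neighbours of *Steap4* in fold change where the mean FPKM reached 10, the 5 nearest profiles, and the most abundant gene of each marker list. *Bach1*, *Aco1*, *Mcoln1*, *Abcb8* and *Ly6g* were added after their values were seen. So were the markers *Itgam*, *Csf3r*, *S100a8*, *Slc4a1*, *Tspo2*, *Cd4*, *Cd8a*, *Cd5*, *C1qa*, *C1qb*, *Spic* and *Ms4a7*. *Ftl1-ps1*, *Ftl2-ps* and *Gm10252* were named for sequence shared or overlapping with *Ftl1*. Alternatives were other scalings, filters, DESeq2 1.42.0, limma 3.58.1, a replicate block and leaving out each library. IREs were searched in GENCODE M21 and promoters read from RefSeq.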

Additional observations from a re-analysis of the deposited data

How the results depend on the processing

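With scaling on neutrophil markers, 5 members were called in place of 8. *Steap4*, chosen by its rise, is among both counts, and of the 7 other tested members 4 were then called lower and 3 were not called. The log2 fold changes of *Slc11a1*, *Fth1*, *Ftl1* and *Hmox1* reversed to -0.13, -0.28, -0.67 and -0.16. That of *Slc40a1* was no longer called. Over all genes, that scaling called 9163 (86 higher, 9077 lower) in place of 5601 (2766 higher, 2835 lower), and a minimum mean FPKM of 5, which tested 5328 genes, called 3637. The split was 1919 higher and 4146 lower with library totals, where the median of all genes moved to -0.42, 1390 and 5274 with totals without erythroid, B and T cell markers, where it moved to -0.66, and 1981 and 4271 with limma on log2(FPKM + 1). For the 34 tested genes of the wider iron list that are no members, 13 higher and 14 lower became 11 and 18 with library totals. Leaving out each library in turn called 4674 to 5385 genes. The log2 fold change of *Steap4* ranged from 0.99 to 3.03 over 16 alternatives, and was 2.52 without Ctrl 2. Libraries with the same replicate number were pools of different mice and deviated together by correlations of 0.0212 to 0.0562, so the numbers do not pair them. A fit with the replicate block called 5546 genes. *Steap3*, with 0 to 256 reads per library, had the largest standard error of the 10 members (1.34).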
